A study of Mus musculus with 24 samples.

Results

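The effect of tunicamycin on wild-type mouse embryonic fibroblasts (MEFs) was set against the effect of switching on the kinase PERK alone. Of the 24 one-colour Agilent arrays of the series, 12 were used for this difference. They were chosen by genotype and treatment as labelled: 4 wild-type arrays with tunicamycin (2 µg per mL, 12 h), 4 untreated wild-type arrays, 2 arrays of Fv2E-PERK cells given AP for 12 h and 2 of untreated Fv2E-PERK cells. The shared protocol text names 12 or 24 h for tunicamycin, while each label gives 12 h. The dose of AP and the genotype of the cells that carry Fv2E-PERK were not given in the sources used here. Tunicamycin-treated and untreated eIF2α A/A cells and Perk-null cells, 2 arrays a group, were used for a further look at the genes found. All 24 arrays entered the spread behind the tests.

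Tunicamycin blocks the first step of N-glycosylation, so newly made glycoproteins misfold in the endoplasmic reticulum (ER). Several sensors are known to respond to this: the kinase PERK, the kinase and nuclease IRE1, which splices the mRNA of the transcription factor XBP1, and ATF6, which is cut to release a transcription factor. PERK phosphorylates the translation factor eIF2α; general translation falls while the transcription factor ATF4 is made, and ATF4 drives the integrated stress response (ISR), which covers amino acid supply, tRNA charging and stress signalling. ATF6 and XBP1 are known to act on ER chaperones and on ER-associated degradation (ERAD). Fv2E-PERK is a fusion of the PERK kinase domain with a module that a small compound can dimerize, which turns the kinase on without misfolded proteins. The eIF2α A/A cells carry alanine at the phosphorylated serine in both gene copies.

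A level here is log2 of the processed spot signal minus the 75th percentile of its array, so a level of 0 equals that percentile. A response is the treated level minus the untreated level, and the difference is the wild-type tunicamycin response minus the AP response. It was tested with limma over 13613 genes, and a gene was called at a Benjamini-Hochberg adjusted p under 0.05. The wild-type arrays came from 2 scan runs, replicates 1 and 2 from run 1 and replicates 3 and 4 from run 2, and the Fv2E-PERK arrays from run 3. A run here is the year of the scan date, not a single scanning session. In run 1 the treated and untreated wild-type arrays lay on separate slides, and the 4 arrays were scanned on 4 different days. Slide, scan day and treatment therefore cannot be told apart there. All 4 wild-type arrays of run 2 shared 1 slide and 1 scan day, and all 4 Fv2E-PERK arrays shared another slide and scan day. The labels name 1 wild type, but the X-inactivation RNA Xist was well above background on all 4 wild-type arrays of run 1 and on none of run 2, and the Y-linked genes Ddx3y and Eif2s3y on all 4 of run 2 and on none of run 1. A gene was therefore said to hold in both wild-type lines only if its difference was called in the same direction with the run 1 response alone and with the run 2 response alone. Both of these share the AP arrays. Within the 12 arrays, tunicamycin was given only to wild-type cells and AP only to Fv2E-PERK cells. In every difference, treatment, cell line and run therefore cannot be told apart. How strongly each treatment activated PERK was not measured. Nothing in the labels says that replicates were separate cultures, so the p-values reflect only how these samples vary, which may be technical.

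Over the 24 arrays the signal at the 75th percentile ranged from 111 to 418 intensity units, and between 45.1% and 58.2% of probes exceeded background clearly. Of 16 fibroblast markers 15 were tested, and 14 or 15 of them were well above background on every array of each of the 4 groups. The exception in Fv2E-PERK cells was Fap, a surface protease of fibroblasts, which no Fv2E-PERK array measured above background. The summed signal of these markers, in multiples of the array's 75th percentile, was 537 to 710 with tunicamycin and 922 to 1260 in untreated wild-type cells, and 319 to 329 with AP and 667 to 673 in untreated Fv2E-PERK cells. In bulk RNA, fewer cells of a type and less RNA per cell cannot be told apart. Summed haematopoietic, neural and endothelial marker signals stayed at or under 71.9 on every array. Because no group was shared between run 3 and the other runs, levels of wild-type and Fv2E-PERK cells were not tested against each other.

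The promoters of 5 genes are shown first: 4 carry the ER stress element or its relative, which were more frequent among genes that held higher, and Chac1 carries only the ATF4 site, which was more frequent among genes raised by AP. They are RefSeq promoters of build GRCm38.p6, running from 250 bases before to 50 bases after the start of the gene, written along the gene's strand. The ER stress element searched for was CCAAT, 9 bases of any kind and CCACG, and the related element II was ATTGG, 1 base and CCACG, which are known binding sites of ATF6 with the factor NF-Y. The ATF4 composite site was TGATGNAA. Each was searched on both strands, and the capitals mark the matched letters, so a match on the opposite strand appears as its reverse complement. Hspa5 (chr2:34771840-34772139, + strand) encodes the chaperone BiP, Derl3 (chr10:75893148-75893447, + strand) an ERAD channel protein and Creld2 (chr15:88819396-88819695, + strand) a disulfide isomerase, and each holds 1 ER stress element. Herpud1 (chr8:94386179-94386478, + strand), an ERAD scaffold, holds an element II and an ATF4 composite site. Chac1 (chr2:119350992-119351291, + strand), an enzyme that degrades glutathione, holds an ATF4 composite site. Of genes described below, the promoters of Sdf2l1, Pdia4, Dnajb9, Ddit3 and Ppp1r15a were searched too and held none of these sites. Hsp90b1 held 2 ER stress elements and Trib3 held 1 ATF4 composite site. For Hyou1 and Manf no promoter was available.
Hspa5: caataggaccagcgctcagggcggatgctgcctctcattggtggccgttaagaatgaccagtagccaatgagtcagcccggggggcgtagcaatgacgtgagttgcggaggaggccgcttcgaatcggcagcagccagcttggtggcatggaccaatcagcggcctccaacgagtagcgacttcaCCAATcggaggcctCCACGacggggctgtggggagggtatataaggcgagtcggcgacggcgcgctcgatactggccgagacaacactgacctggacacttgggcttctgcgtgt
Derl3: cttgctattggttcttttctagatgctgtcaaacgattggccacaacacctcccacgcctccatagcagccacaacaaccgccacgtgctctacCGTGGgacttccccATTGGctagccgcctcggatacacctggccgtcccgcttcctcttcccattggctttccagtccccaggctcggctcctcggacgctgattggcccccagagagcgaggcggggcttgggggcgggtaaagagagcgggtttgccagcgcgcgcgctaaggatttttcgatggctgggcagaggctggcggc
Creld2: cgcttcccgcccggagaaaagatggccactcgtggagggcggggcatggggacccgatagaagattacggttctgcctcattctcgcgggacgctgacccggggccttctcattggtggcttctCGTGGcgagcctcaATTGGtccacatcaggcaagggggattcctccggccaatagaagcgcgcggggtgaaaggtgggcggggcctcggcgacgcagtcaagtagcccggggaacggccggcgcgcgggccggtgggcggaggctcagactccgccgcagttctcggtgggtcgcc
Herpud1: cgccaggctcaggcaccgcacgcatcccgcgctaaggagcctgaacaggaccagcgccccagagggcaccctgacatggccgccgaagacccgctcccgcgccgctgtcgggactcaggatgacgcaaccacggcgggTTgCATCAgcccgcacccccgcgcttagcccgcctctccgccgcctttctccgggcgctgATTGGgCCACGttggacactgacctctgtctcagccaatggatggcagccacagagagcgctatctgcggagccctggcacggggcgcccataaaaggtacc
Chac1: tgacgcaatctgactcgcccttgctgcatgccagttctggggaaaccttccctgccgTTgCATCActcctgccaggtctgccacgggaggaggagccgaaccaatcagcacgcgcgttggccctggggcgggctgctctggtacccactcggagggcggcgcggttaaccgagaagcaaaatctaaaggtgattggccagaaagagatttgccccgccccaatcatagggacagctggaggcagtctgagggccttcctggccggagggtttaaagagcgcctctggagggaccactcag

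Tunicamycin moved many more genes than AP. In wild-type cells 3106 genes rose (22.8% of those tested) and 2374 fell (17.4%). With the run 1 arrays 2970 rose (21.8%) and 2373 fell (17.4%), and with those of run 2 1796 rose (13.2%) and 1311 fell (9.63%). With AP 418 genes rose (3.07%) and 196 fell (1.44%). The wild-type response exceeded the AP response in 570 genes (4.19%) and fell short of it in 554 (4.07%), and 3200 genes had an unadjusted p under 0.05. With the run 1 response alone the counts were 1265 higher (9.29%) and 1494 lower (11.0%), and with run 2 alone 344 higher (2.53%) and 263 lower (1.93%). Replicates varied more in run 1. Their median SD was 0.221 with tunicamycin and 0.226 untreated, against 0.0679 and 0.0834 in run 2. In Fv2E-PERK cells it was 0.053 with AP and 0.0757 untreated. The main fit used 1 spread per gene for all arrays, and how far this shaped the counts was not tested. In both wild-type lines 252 genes held higher (1.85%) and 192 held lower (1.41%). These counts depended on single arrays. Without any 1 Fv2E-PERK array the difference was called higher in 225 to 300 genes and lower in 175 to 224. Without any 1 Fv2E-PERK array or any 1 wild-type array of run 2, 132 to 158 genes held higher and 80 to 98 held lower.

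**Figure D1:**
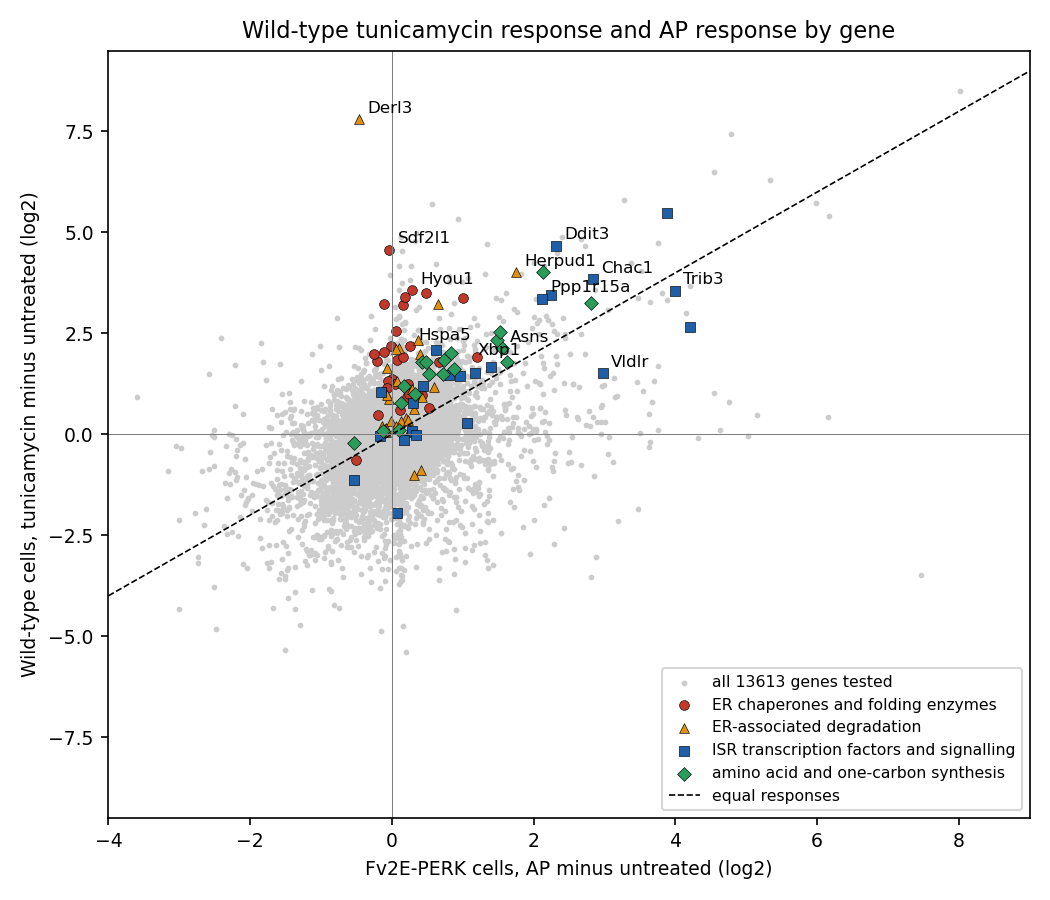
Each point is 1 of the 13613 genes tested, with the AP response of Fv2E-PERK cells on the horizontal axis and the wild-type tunicamycin response on the vertical axis, both log2. ER chaperones sit in a column near an AP response of 0, with Sdf2l1 at 4.58 in wild-type cells and -0.04 with AP, while the ISR gene Trib3 lies near the line of equal responses.

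Among the 252 genes that held higher, 202 rose with tunicamycin and were not called with AP, and 187 of these were measured above background in both lines. A further 35 rose with both treatments and rose more with tunicamycin. In 7 genes tunicamycin raised the level while AP lowered it, in 7 AP lowered a gene not called in wild-type cells, and 1 gene, Aldoc, fell with both. Their median difference was 1.25, against 0.00 over all genes tested. Their median response was 1.45 to tunicamycin and 0.10 to AP, against 0.07 and 0.08 over all genes.

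Over all genes tested, 4.19% had a higher and 4.07% a lower difference, to be set beside each list below. With tunicamycin 22.8% of all genes rose and 17.4% fell, and with AP 3.07% rose and 1.44% fell. ER chaperones and folding enzymes showed the clearest excess with tunicamycin. Of 29 genes tested, 21 had a higher difference and 19 held in both lines; in limma none had a lower one, also at an unadjusted p under 0.05. The list's median difference was 1.77, against 0.00 over all genes, with a median response of 1.60 in run 1, 1.93 in run 2 and 0.12 to AP. With AP limma called 1 of the 29 genes higher, Dnajb9. At an unadjusted p under 0.05, 4 of the 29 were higher with AP and 0 lower. An AP response that was not called does not show that AP left the gene unchanged.

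Sdf2l1, a partner of BiP in the ER, had levels of 6.34, 6.27, 6.77 and 6.75 with tunicamycin and 2.12, 1.93, 1.83 and 1.96 in untreated wild-type cells. In Fv2E-PERK cells it had levels of 2.03 and 2.03 with AP and 2.06 and 2.08 untreated. The wild-type groups lay far apart while the Fv2E-PERK groups nearly coincided, and the difference was 4.62 ± 0.24 (SE; limma adjusted p = 2.12e-08). BiP itself, Hspa5, had levels of 9.23, 9.07, 9.05 and 9.07 with tunicamycin and 6.74, 6.92, 6.93 and 7.09 in untreated wild-type cells. Its levels in Fv2E-PERK cells were 7.05 and 6.97 with AP and 6.71 and 6.79 untreated. The Fv2E-PERK groups did not overlap, but the AP response of 0.26 was not called (limma adjusted p = 0.343). The difference of Hspa5 was 1.93 ± 0.17 (limma adjusted p = 4.01e-06), a 3.80-fold larger change with tunicamycin.

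Hyou1, the large ER chaperone that exchanges nucleotide on BiP, had levels of 2.79, 2.94, 2.83 and 2.76 with tunicamycin and -0.68, -0.57, -0.76 and -0.95 in untreated wild-type cells. With AP its levels were -0.62 and -0.70, against -0.90 and -1.0 in untreated Fv2E-PERK cells. Every wild-type array with tunicamycin thus lay far above every untreated one, and both AP arrays lay slightly above their untreated pair. The difference of Hyou1 was 3.28 ± 0.21. Other members with large differences were the disulfide isomerase Pdia4 (3.34 ± 0.25), Creld2 (3.23 ± 0.17), the secreted ER protein Manf (3.06 ± 0.19), the oxidase Ero1b (3.03 ± 0.31) and Dnajc3 (2.49 ± 0.18), a co-chaperone that also inhibits PERK. AP responses of these 6 genes lay between -0.11 and 0.48, none of them called. The lectin chaperones Calr (2.16 ± 0.15) and Canx (1.37 ± 0.21) and the ER member of the HSP90 family, Hsp90b1, (2.20 ± 0.26) held in both lines with AP responses of -0.12, 0.00 and -0.01.

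Dnajb9, a co-chaperone that binds IRE1, stood between the ER and the ISR genes. It had levels of 3.92, 3.78, 3.88 and 3.84 with tunicamycin and 0.82, 0.58, 0.26 and 0.31 in untreated wild-type cells, and 0.53 and 0.57 with AP and -0.37 and -0.53 in untreated Fv2E-PERK cells. Neither pair of groups overlapped. AP raised Dnajb9 by 1.00 (limma adjusted p = 0.000894), tunicamycin by 3.37, and the difference was 2.37 ± 0.18. The other ER oxidase, Ero1a, was not called for the difference (0.73), with responses of 1.93 to tunicamycin and 1.20 to AP.

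**Figure D2:**
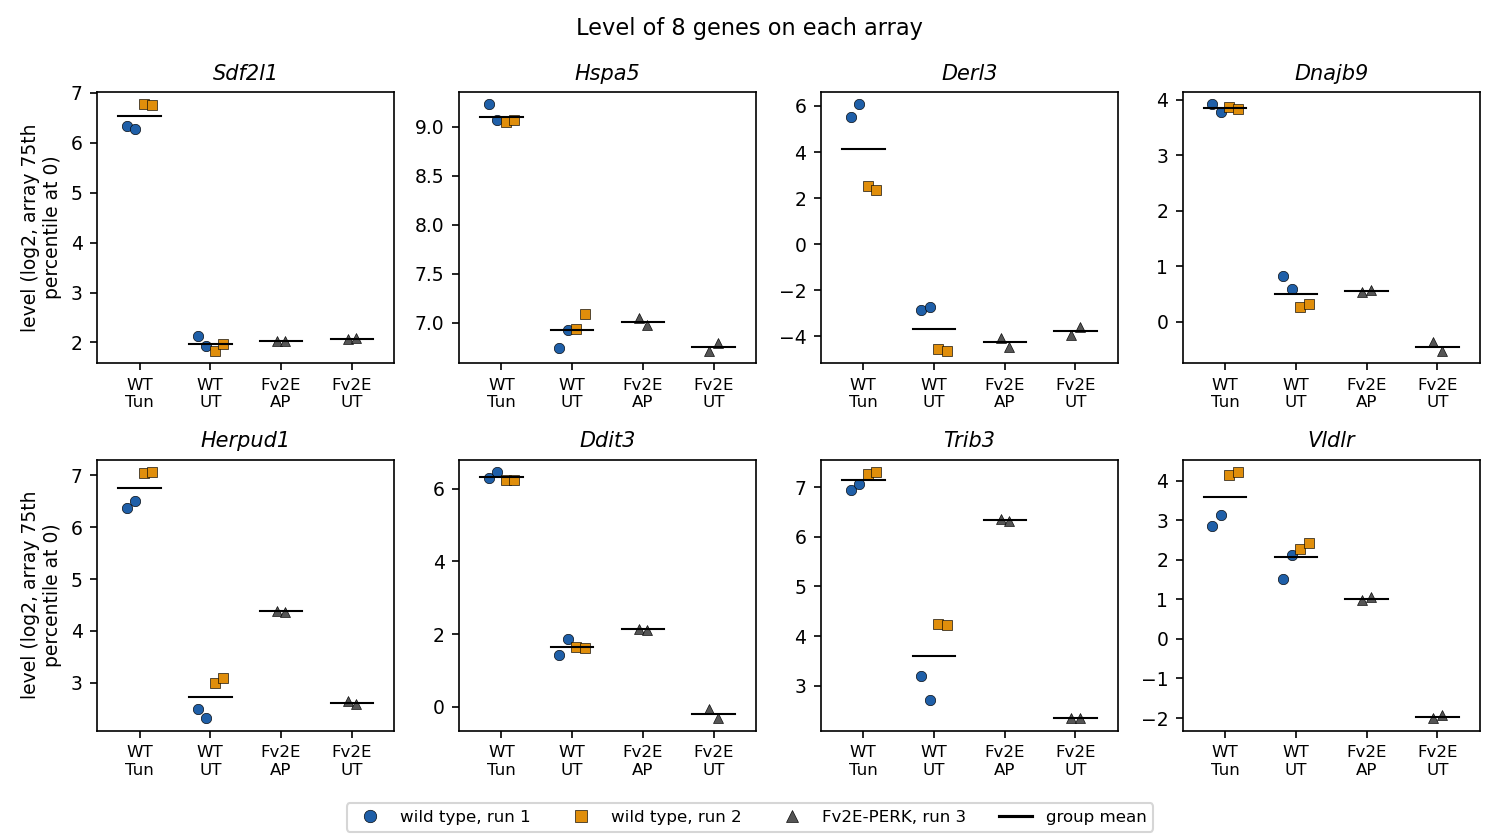
Levels of 8 genes on each of the 12 arrays, with bars at the group means; circles are wild-type arrays of run 1, squares those of run 2 and triangles Fv2E-PERK arrays. Sdf2l1, Hspa5 and Derl3 separate tunicamycin from untreated wild-type cells with AP and untreated Fv2E-PERK cells close together, whereas Herpud1, Ddit3, Trib3 and Vldlr stand apart in both lines.

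Of 28 ERAD genes tested, 12 had a higher difference and all 12 held in both lines, while 1, the cytosolic deglycosylase Ngly1, held lower. The list's median difference was 0.42 with a median AP response of 0.16. Derl3 had levels of 5.53, 6.07, 2.53 and 2.35 with tunicamycin and -2.85, -2.71, -4.55 and -4.63 in untreated wild-type cells. Fv2E-PERK cells had levels of -4.06 and -4.44 with AP and -3.96 and -3.60 untreated, and 1 of the 2 AP arrays was above background. Derl3 had the largest difference of all genes that held, 8.28 ± 0.46, and its level was higher in run 1 than in run 2 with and without tunicamycin. The ubiquitin ligase Syvn1 (2.05 ± 0.22), its partner Sel1l (2.57 ± 0.24), the mannosidase-like lectin Edem1 (2.05 ± 0.22) and the selenoprotein Selenos (1.98 ± 0.17) held in both lines without a called AP response. The difference of Ngly1, -1.32 ± 0.24, was not called with normexp, another background correction.

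Herpud1, whose promoter above holds both an element II and an ATF4 site, rose with both treatments. Its levels were 6.37, 6.51, 7.05 and 7.07 with tunicamycin and 2.50, 2.31, 3.0 and 3.09 in untreated wild-type cells. In Fv2E-PERK cells they were 4.39 and 4.36 with AP and 2.65 and 2.58 untreated. Neither pair of groups overlapped, and AP raised Herpud1 by 1.76 ± 0.16 (limma adjusted p = 9.92e-06), tunicamycin by 4.03 ± 0.11. The difference was 2.27 ± 0.20.

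N-glycosylation, the process that tunicamycin blocks, followed the chaperones at smaller size. Of 33 genes tested, 13 had a higher difference and 12 held; the median difference was 0.72. Dpagt1, the enzyme that tunicamycin inhibits, had levels of 4.73, 4.66, 4.55 and 4.60 with tunicamycin and 3.66, 3.78, 3.67 and 3.77 in untreated wild-type cells. In Fv2E-PERK cells the levels were 3.75 and 3.61 with AP and 3.78 and 3.81 untreated. The wild-type groups did not overlap, and the difference was 1.03 ± 0.13 (limma adjusted p = 0.00019). The catalytic subunits of the oligosaccharyltransferase, Stt3a (1.07 ± 0.21) and Stt3b (1.05 ± 0.19), and the subunits Magt1 (2.12 ± 0.18) and Ostc (1.35 ± 0.15) also held. So did Alg5 (1.16 ± 0.15), which makes the glucose donor of the sugar chain. Gnpnat1, an enzyme of UDP-N-acetylglucosamine synthesis, was one of 2 members called higher with AP (1.02); Alg12, a mannosyltransferase, was the other (1.07).

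In ER translocation, 12 of 23 genes had a higher difference and 8 held, with a median difference of 0.83. The signal peptidase subunits Spcs2 (1.94 ± 0.17), Sec11a (1.21 ± 0.13) and Sec11c and the channel partners Sec61b (0.83 ± 0.17) and Sec63 (1.03 ± 0.19) were among those that held, and the difference of the subunit Spcs3 (1.18 ± 0.33) did not. Of 37 COPI and COPII transport genes 9 had a higher difference and 6 held, with a median difference of 0.43. Among them was Kdelr2, a receptor that returns ER proteins from the Golgi (0.96 ± 0.18). The cargo receptor genes Surf4 (1.05 ± 0.22), Mcfd2 (0.91 ± 0.18) and Tmed2 (0.90 ± 0.19) held too, the last of which was not called without Fv2E-PERK untreated replicate 2 or AP replicate 1. The median AP response was 0.12 in the translocation list and -0.04 in the COPI and COPII list. The difference of Sec61b was not called under quantile normalization or without Fv2E-PERK untreated replicate 2 or AP replicate 1, and that of Sec63 was not called when all its probes were averaged.

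The sensors themselves were less uniform: of 16 genes of the IRE1, ATF6 and CREB3 list, 6 had a higher difference, Nfyb a lower one, and 1 held. That gene was Wfs1, an ER membrane protein that restrains ATF6 (1.68 ± 0.38), which lost its call when any 1 Fv2E-PERK array was left out. Xbp1 had levels of 6.04, 6.07, 6.12 and 6.30 with tunicamycin and 4.59, 4.21, 4.22 and 4.25 in untreated wild-type cells. With AP it had levels of 5.18 and 5.21, against 4.06 and 4.16 in untreated Fv2E-PERK cells. Xbp1 therefore rose with both treatments, by 1.81 ± 0.11 with tunicamycin and 1.08 ± 0.16 with AP, and the groups did not overlap in either line. Its difference of 0.73 ± 0.20 (limma adjusted p = 0.0348) did not hold in both lines. It was not called with the 12 arrays alone, under quantile normalization or normexp, or without untreated wild-type replicate 2, 3 or 4, without tunicamycin replicate 4 or without any 1 Fv2E-PERK array. The array does not tell spliced from unspliced Xbp1 here. Atf6 (1.13 ± 0.32) and Mbtps2 (1.14 ± 0.28), a protease that cuts ATF6, did not hold either, and Ern1, which encodes IRE1, was not called (0.78 ± 0.32).

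RNAs cut by IRE1 in other studies were followed as a separate short list, of which all 6 fell with tunicamycin. With AP, limma called none of the 6, and 3 were lower at an unadjusted p under 0.05. The difference was called for Scara3 alone, a scavenger receptor. Scara3 had levels of -2.97, -2.53, -1.22 and -1.23 with tunicamycin and 1.37, 1.47, 1.41 and 1.28 in untreated wild-type cells. Its difference of -3.53 ± 0.46 rests on Fv2E-PERK levels between -6.71 and -6.40, which were not well above background on any of those arrays, so no change was measurable there. Bloc1s1, the best known such RNA, had responses of -0.99 to tunicamycin and -0.39 to AP, and its difference of -0.60 ± 0.20 was not called.

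Of 23 genes of the ISR signalling list, 15 rose and 2 fell with tunicamycin, and 10 rose with AP, with median responses of 1.47 and 0.97. For the difference 3 were higher, all of which held, and 2 lower, and the list's median difference was 0.35. Ddit3, which encodes the transcription factor CHOP, was one of the 3. It had levels of 6.29, 6.46, 6.24 and 6.23 with tunicamycin and 1.43, 1.86, 1.64 and 1.62 in untreated wild-type cells, and 2.15 and 2.12 with AP and -0.05 and -0.32 in untreated Fv2E-PERK cells. The groups did not overlap in either line, and Ddit3 rose by 4.67 ± 0.14 with tunicamycin and by 2.32 ± 0.20 with AP. Its difference of 2.36 ± 0.24 held in both lines. Ppp1r15a, the phosphatase subunit GADD34 that reverses eIF2α phosphorylation, rose by 3.36 with tunicamycin and 2.12 with AP, a difference of 1.24 ± 0.23. The third, Mafk, a small MAF transcription factor, had responses of 1.04 to tunicamycin and -0.15 to AP and a difference of 1.20 ± 0.26.

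Trib3, a pseudokinase that restrains ATF4 and CHOP, showed no such excess. It had levels of 6.95, 7.07, 7.26 and 7.31 with tunicamycin and 3.19, 2.71, 4.24 and 4.22 in untreated wild-type cells. Its levels in Fv2E-PERK cells were 6.36 and 6.32 with AP and 2.34 and 2.35 untreated. The responses were 3.56 ± 0.20 to tunicamycin and 4.0 ± 0.28 to AP, and the difference of -0.44 had a 95% interval from -1.18 to 0.31 (limma adjusted p = 0.492). That interval leaves room for a larger AP response as well as for a slightly larger tunicamycin response. Chac1 had a difference of 1.00 (interval -0.05 to 2.05) and Atf3, a stress transcription factor, of 1.20 (0.15 to 2.25), neither called. In Chac1 the wild-type response was 4.76 in run 1 and 2.92 in run 2, and in Atf3 it was 2.49 in run 1 and 4.40 in run 2. The secreted hormones Fgf21 (1.61 ± 0.84) and Gdf15 (-1.55 ± 0.80) were not called for the difference, and both rose with AP, Fgf21 by 3.88 and Gdf15 by 4.21. With normexp the difference of Fgf21 turned to -0.47, also not called. Fgf21 was not well above background on all 12 arrays, so the sizes of its responses are uncertain. Sesn2, a restraint on mTORC1, had responses of 1.52 to tunicamycin and 1.17 to AP and a difference of 0.35, not called. Atf4 had levels of 8.70, 8.63, 9.07 and 9.14 with tunicamycin and 7.22, 7.20, 7.60 and 7.65 in untreated wild-type cells, against 8.36 and 8.32 with AP and 7.48 and 7.59 in untreated Fv2E-PERK cells. Its difference of 0.66 ± 1.14 carries the spread of Atf4-null arrays in the same model, and in a fit of the 12 arrays alone it was called (limma adjusted p = 0.0184).

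The Vldl receptor gene Vldlr, of the same list, went the other way. It had levels of 2.86, 3.12, 4.15 and 4.22 with tunicamycin and 1.51, 2.13, 2.26 and 2.41 in untreated wild-type cells, and 0.97 and 1.05 with AP and -2.01 and -1.92 in untreated Fv2E-PERK cells. Groups overlapped in neither line, and both treatments raised Vldlr, by 1.51 with tunicamycin and by 2.98 with AP. The difference of -1.47 ± 0.29 (limma adjusted p = 0.00646) held in both lines and was not called with normexp. Eif2ak2, the interferon-inducible eIF2α kinase PKR, was the second member with a lower difference (-2.02 ± 0.59), and it did not hold.

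Some genes of amino acid supply rose with both treatments. In amino acid and one-carbon synthesis, 16 of 19 genes rose with tunicamycin and 8 with AP, and the difference was higher in 8 genes, of which 3 held: Cth, Shmt2 and Aldh18a1. The list's median difference was 0.76. Cth, which makes cysteine from cystathionine, had levels of 4.90, 4.02, 4.88 and 5.01 with tunicamycin and 0.38, 0.31, 1.1 and 0.98 in untreated wild-type cells. With AP it had levels of 3.92 and 3.98, against 1.88 and 1.76 in untreated Fv2E-PERK cells. Both treatments raised Cth without overlap of the groups, and the difference was 1.89 ± 0.39. Phgdh, the entry enzyme of serine synthesis, had a higher difference (1.36 ± 0.34) that did not hold. Asparagine synthetase, Asns, was not called for the difference: 0.58, with an interval from -0.06 to 1.22, and responses of 2.13 to tunicamycin and 1.55 to AP. Aldh1l2, a mitochondrial folate enzyme, had responses of 3.26 and 2.81 and a difference of 0.45, not called.

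Of 15 amino acid transporters 11 rose with tunicamycin and 6 with AP, and 8 had a higher difference, 6 of which held, and the list's median difference was 1.31. Slc3a2, the heavy chain shared by several exchangers, had levels of 9.05, 8.72, 8.52 and 8.39 with tunicamycin and 5.07, 4.57, 4.96 and 4.97 in untreated wild-type cells. Its levels in Fv2E-PERK cells were 6.24 and 6.15 with AP and 5.28 and 5.14 untreated. Slc3a2 rose with both and its difference was 2.79 ± 0.25, the largest of the list. The glycine transporter Slc6a9 (2.02 ± 0.39) and the cationic amino acid transporters Slc7a1 (1.56 ± 0.34) and Slc7a3 also held, although Slc7a1 lost its call without Fv2E-PERK untreated replicate 2 or without either AP array. The cystine exchanger Slc7a11 had a difference of 1.93 ± 0.69, not called (limma adjusted p = 0.0997). The glutamate transporter Slc1a3 held lower (-2.61). Of 20 cytosolic aminoacyl-tRNA synthetases 19 rose with tunicamycin and 6 with AP. The difference was higher in 5 and held in Wars (1.63 ± 0.23) and Sars, while that of Yars (0.97 ± 0.25) and Cars (0.83 ± 0.22) did not hold.

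**Figure D3:**
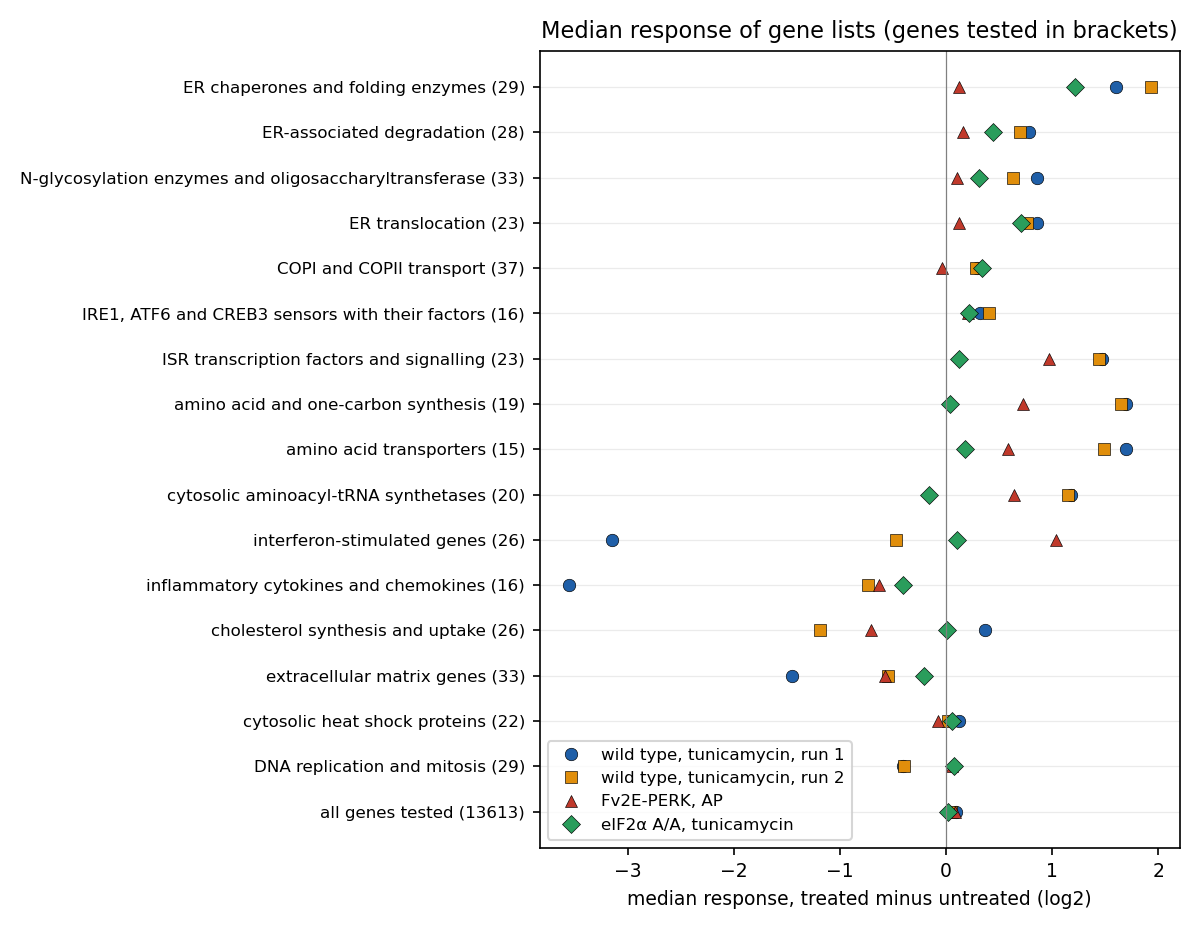
Median response of 16 gene lists and of all genes, with wild-type run 1 as circles, wild-type run 2 as squares, AP as triangles and tunicamycin in eIF2α A/A cells as diamonds, in log2. The ER lists have AP medians near 0 and raised A/A medians (chaperones 0.12 and 1.22). Amino acid synthesis has a raised AP median and an A/A median near 0 (0.73 and 0.04), and amino acid transporters have medians of 0.58 and 0.18.

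The AP response was also read from its own side. Of the 418 genes that AP raised, 280 (67%) rose with tunicamycin too, 23 fell and 115 were not called, and the 280 made up 9.01% of the 3106 genes raised by tunicamycin. In 277 of the 418 (66.3%) the difference between the responses was not called, in 89 (21.3%) the AP response was larger, and in 52 (12.4%) the tunicamycin response was larger. A difference that was not called does not show equal responses.

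Outside the lists, several genes rose with both treatments and more with tunicamycin. Chchd10, a mitochondrial intermembrane space protein, had levels of 6.64, 5.81, 4.34 and 4.48 with tunicamycin and 0.77, 1.07, -0.10 and -0.01 in untreated wild-type cells, and 2.82 and 2.96 with AP and 0.50 and 0.48 in untreated Fv2E-PERK cells. The groups did not overlap in either line, and the difference was 2.49 ± 0.36. The glycosyltransferase B4galnt2 rose by 5.80 with tunicamycin, where 2 of 4 untreated arrays measured it above background, and at least 2.89-fold with AP, where no untreated Fv2E-PERK array measured it above background. Alox12e, a lipoxygenase gene, was at least 1.86-fold higher with tunicamycin, while its AP response (at least 2.88-fold lower) was not called, and its difference was 3.61 ± 0.64. Further genes were chosen by size of the difference, and several belong to genes below background in Fv2E-PERK cells, for which an AP response could not be measured. Nrip2, a nuclear receptor interacting protein, rose at least 13.0-fold with tunicamycin and was not well above background on any Fv2E-PERK array. On no Fv2E-PERK array was background exceeded either by Cyb5r2 (at least 12.1-fold higher with tunicamycin), Sh3tc2 (at least 10.8-fold), Ppef1 (at least 6.47-fold), the trypsinogen Try5 (at least 4.91-fold, with a near-identical family) and Ostn (at least 4.21-fold), or by Myom2 and Hmx3. Both rose with tunicamycin, but only 2 of 4 untreated wild-type arrays measured Myom2 above background and 1 of 4 measured Hmx3, so no size is given. The difference of Sh3tc2 was not called without Fv2E-PERK untreated replicate 2, and that of Ostn not with normexp or without untreated replicate 1 or AP replicate 1. These folds set the mean with tunicamycin against the lowest signal still above background, or the gene's own untreated signal where that was higher. Phlda2, an imprinted growth regulator, had a difference of 4.79 ± 0.89, with levels of -5.58 and -5.80 with AP and -4.63 and -1.91 in untreated Fv2E-PERK cells, of which the last alone was above background. The stress enzyme Hmox1 (2.18 ± 0.23), the secreted glycoprotein Stc2 and the BH3-only gene Bbc3 (1.22 ± 0.23) held higher as well; Stc2 was below background on all Fv2E-PERK arrays.

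Genes that held lower were of 2 kinds. In 141 of the 192 the level fell with tunicamycin and was not called with AP, and 128 of these were measured in both lines. AP raised the level of most others: tunicamycin lowered 23 of these, left 22 uncalled and raised 3, namely Vldlr, Tmem198 and Ccdc174. Measured in both lines were 16 of the 23, 15 of the 22 and all 3 that tunicamycin raised. Genes not measured in both lines may lack a measurable response in 1 of them. The remaining 3 of the 192 fell with both treatments. The median difference of the 192 was -1.78, with a median response of -1.34 to tunicamycin and 0.37 to AP.

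Fbln2, a matrix protein and fibroblast marker, had levels of 3.23, 4.22, 2.68 and 2.74 with tunicamycin and 6.61, 5.74, 4.80 and 4.76 in untreated wild-type cells. Its levels were 4.10 and 4.01 with AP and 3.95 and 3.89 in untreated Fv2E-PERK cells. Every wild-type array with tunicamycin lay below every untreated one, AP changed little, and the difference was -2.40 ± 0.39. The related matrix gene Fbln5 went differently, with levels of 2.62, 3.20, 4.67 and 4.66 with tunicamycin and 2.46, 3.65, 4.80 and 4.84 in untreated wild-type cells. With AP its levels were 2.00 and 1.91, against -0.29 and -0.23 in untreated Fv2E-PERK cells. AP raised Fbln5 by 2.22 while the wild-type groups overlapped, a difference of -2.37 ± 0.33, which was not called when all probes of the gene were averaged. The developmental regulators Id4 (-4.19 ± 0.48) and Rarb (-3.20 ± 0.29) and the chemokine Cxcl5 (-4.91 ± 0.92) fell with tunicamycin; Cxcl5 was not well above background in Fv2E-PERK cells. Among the lowest differences were also those of Pcp4l1 (-5.27 ± 0.84), the membrane protein gene Slitrk6 (-4.68 ± 0.62), the tubulin gene Tuba8 (-4.46 ± 0.49) and Sparcl1, a matricellular glycoprotein (-4.30 ± 0.84). All 4 fell with tunicamycin, although of the 4 treated arrays 1 measured Slitrk6 above background and 2 each Tuba8 and Sparcl1, and none of their AP responses, between 0.91 and 1.43, was called. The fatty acid binding protein Fabp7 was at least 9.09-fold lower with tunicamycin (difference -4.72 ± 0.82) and the histone gene H2bu2 at least 2.38-fold lower (-3.98 ± 0.63), and neither difference was called with normexp.

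AP raised some genes that tunicamycin did not. Pramel20, of the PRAME-like family on chromosome 4, had levels of 0.52 and 1.27 with AP and -1.90 and -1.90 in untreated Fv2E-PERK cells. Its wild-type levels were -0.82, -0.37, -1.52 and -1.38 with tunicamycin and -0.36, -1.53, -1.40 and -1.59 untreated. The AP arrays stood apart while the wild-type groups overlapped, and the difference was -2.60 ± 0.49. Gm13043 (at least 59.7-fold with AP), Pramel31 (at least 7.76-fold) and Pramel16 (at least 7.31-fold) were also higher with AP. These genes have near-identical copies, so their probes may read one another and their values are uncertain; the difference of Pramel31 was not called without AP replicate 2, nor that of Pramel16 without that array or either untreated Fv2E-PERK array. Gm20767 was not well above background on any wild-type array and rose by 4.76 with AP, to levels of -0.69 and 0.28, against -5.44 and -4.48 in untreated Fv2E-PERK cells. The nuclear receptor gene Nr1h3 had levels of -0.27 and -0.35 with AP and -2.38 and -3.60 in untreated Fv2E-PERK cells, against a wild-type response of -0.76 that was not called. Its difference was -3.43 ± 0.66. The cytosolic heat shock gene Hspa1a had levels of -4.24 and -5.49 with AP and -6.86 and -6.50 in untreated Fv2E-PERK cells, and 1 AP array alone was above background there. Its difference of -2.35 ± 0.35 was not called with normexp. The histone gene H2bc23 rose with AP by 2.15 and was at least 1.56-fold lower with tunicamycin, where no array measured it above background. Its difference was not called with normexp either.

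The wild-type response differed between run 1 and run 2 in 1167 genes (8.57%), being higher in run 1 in 470 (3.45%) and lower in 697 (5.12%), and 3 lists differed widely between the runs. Interferon-stimulated genes had a median difference of -2.90, with 9 of 26 lower, among them Rtp4 (-3.98 ± 1.09) and Parp14 (-3.44 ± 1.01), and none held in both lines (limma; 19 were lower at an unadjusted p under 0.05). Their median response to tunicamycin was -3.15 in run 1 and -0.47 in run 2, and to AP 1.04; limma called none with AP, and 4 were higher at an unadjusted p under 0.05. The list's median level in untreated wild-type cells was 4.79 in run 1 and -0.36 in run 2. Usp18, a protease that removes ISG15, had levels of 1.96, 1.70, -1.82 and -1.94 with tunicamycin and 5.65, 5.33, -1.22 and -1.28 in untreated wild-type cells, so its 2 runs lay in separate ranges. In Fv2E-PERK cells it had levels of 1.20 and 1.17 with AP and -1.90 and -2.12 untreated, and that AP response of 3.20 was not called (limma adjusted p = 0.0847). The model fits 1 wild-type response over both runs, so a gap between the runs widens the spread behind the AP calls. An AP response that was not called in this list therefore does not show that AP had little effect. Among 16 cytokines and chemokines 1 had a higher difference (Csf1, a macrophage growth factor, 0.97 ± 0.25) and 1 a lower one (Cxcl5), with median wild-type responses of -3.56 in run 1 and -0.74 in run 2. Il6, an inflammatory cytokine, had levels of -3.30 and -2.43 with tunicamycin and 4.10 and 4.17 untreated in run 1, and of -4.72 and -5.03 with tunicamycin and -5.34 and -5.31 untreated in run 2. Cholesterol synthesis and uptake genes had median responses of 0.37 in run 1, -1.19 in run 2 and -0.71 to AP, and 1 of 26, Ebp, held higher. Run 1 confounds slide and scan day with treatment and differs from run 2 in cell line. Slide, scan day, line and treatment therefore cannot be told apart there.

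**Figure D4:**
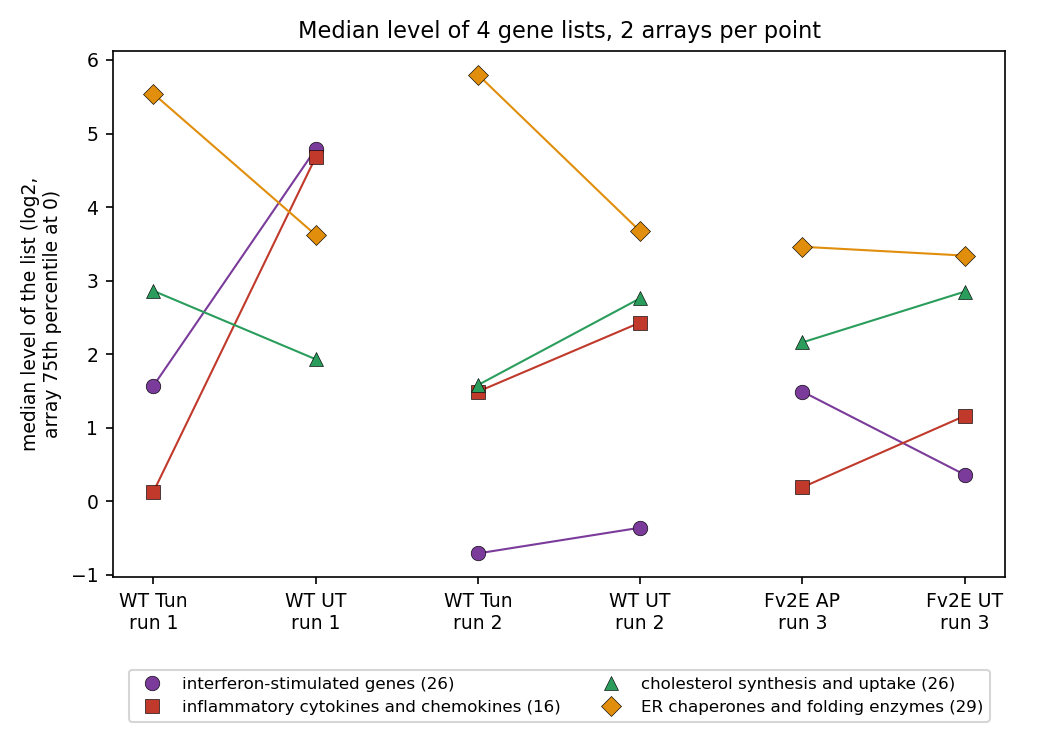
Median level of 4 gene lists, each point the median over the list's genes of the mean of 2 arrays, with treated left of untreated in each pair. Untreated wild-type cells of run 1 stand apart for interferon-stimulated genes (4.79, against -0.36 in run 2), while ER chaperones stand higher with tunicamycin in both runs (5.54 and 5.80) than untreated (3.62 and 3.67).

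Of 33 matrix genes 20 fell with tunicamycin and 2 with AP, against 17.4% and 1.44% of all genes tested. For the difference Lox and Serpinh1 were higher and Mmp3 lower, with a median of -0.32, and Serpinh1, a collagen chaperone of the ER, held (0.85 ± 0.18). Col3a1, a fibrillar collagen, had levels of 0.81, 1.99, 3.81 and 3.61 with tunicamycin and 5.01, 4.74, 5.10 and 5.09 in untreated wild-type cells. With AP its levels were -0.14 and -0.21, against 2.17 and 2.00 in untreated Fv2E-PERK cells. The groups did not overlap in either line, although the AP response of -2.26 was not called (limma adjusted p = 0.108), and the difference of -0.17 had an interval from -2.12 to 1.78. The spread behind both includes the gap between the wild-type runs. The remaining lists (cell cycle, mitochondrial proteases and chaperones, autophagy, glycolysis, antioxidant genes, death regulators, p53 targets, cytosolic heat shock proteins and initiation factors) had median differences between -0.44 and 0.35, with 0 to 3 called members in either direction. Of these, the replication enzyme gene Tk1 (-1.16 ± 0.20) and the mitochondrial protease gene Oma1 (-1.12 ± 0.27) held lower. Higher in both lines were the mitochondrial protease gene Lonp1 (0.82 ± 0.14), the autophagy genes Gabarapl1 (1.18 ± 0.23) and Atg13 (0.97 ± 0.18), the BH3-only gene Bid (1.04 ± 0.19), and the translation genes Eif4ebp1 (1.59 ± 0.29) and Eif1a (1.5 ± 0.17). The mitochondrial chaperone Hspa9 (0.84 ± 0.24), the autophagy receptor Sqstm1 (0.94 ± 0.27), the glucose transporter Slc2a1 (1.18 ± 0.34), the death receptor Tnfrsf10b (0.95 ± 0.20), Trp53 (1.05 ± 0.25) and Eif3c (0.79 ± 0.20) were called higher but did not hold. Among markers, the collagen receptor Ddr2 of fibroblasts held higher (1.21 ± 0.21), and the epithelial keratin Krt8 (1.46 ± 0.40), not above background on any wild-type array, did not hold.

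Many of these smaller differences rested on few arrays. Without AP replicate 2, limma no longer called Phgdh, Yars, Cars, Spcs3, Surf4, Mbtps2, Rtp4, Parp14, Csf1, Oma1, Hspa9, Sqstm1, Slc2a1, Tnfrsf10b, Trp53, Eif3c or Krt8.

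The genes that held were then followed in eIF2α A/A and Perk-null cells. The arrays of these cells do not enter the size of the difference, but they enter the variance of the same model, which decided the calls. Genes that held may therefore be called more readily in these cells, and the shares called are not from an independent test. The median responses do not use that variance. Of the 252 that held higher, 99 (39.3%) rose with tunicamycin in A/A cells and 8 fell, against 3.22% and 1.72% of all genes tested. Their median A/A response was 0.46, against 0.02 over all genes, and 199 of the 252 had a response above 0. In Perk-null cells 76 (30.2%) rose, against 2.06%, and 4 fell, against 0.47%, with a median of 0.44. Of the 192 that held lower, 22 (11.5%) fell and 16 (8.33%) rose in A/A cells, with a median of 0.08.

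In A/A cells 20 of the 29 ER chaperones rose, with a median response of 1.22. Hspa5 rose there by 1.60, Sdf2l1 by 2.59, Dnajb9 by 2.97 and Ero1b by 3.04. Of the ISR signalling list 2 of 23 rose in A/A cells, Ddit3 by 1.13 and Eif2ak3, which encodes PERK, by 1.12. In A/A cells the median response was 0.04 for the 19 amino acid synthesis genes and -0.16 for the 20 tRNA synthetases. limma called none of either list there. At an unadjusted p under 0.05, 1 synthesis gene was higher and 2 lower, and 1 synthetase was lower. Of the 15 amino acid transporters limma called 4 higher and 2 lower there (median 0.18), against 3.22% and 1.72% of all genes. In Perk-null cells, where 2.06% of all genes rose, 8 of the 23 ISR signalling genes rose (median 0.46), as did 5 of 19 synthesis genes (0.57), 5 of 15 transporters (0.71) and 3 of 20 synthetases (0.42). Slc3a2 (2.13) and Slc6a9 (1.65) rose there, while Cth (0.41), Slc7a1 (0.20), Wars (0.10) and Chchd10 (0.56), which held higher in wild-type cells, were not called.

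**Figure D5:**
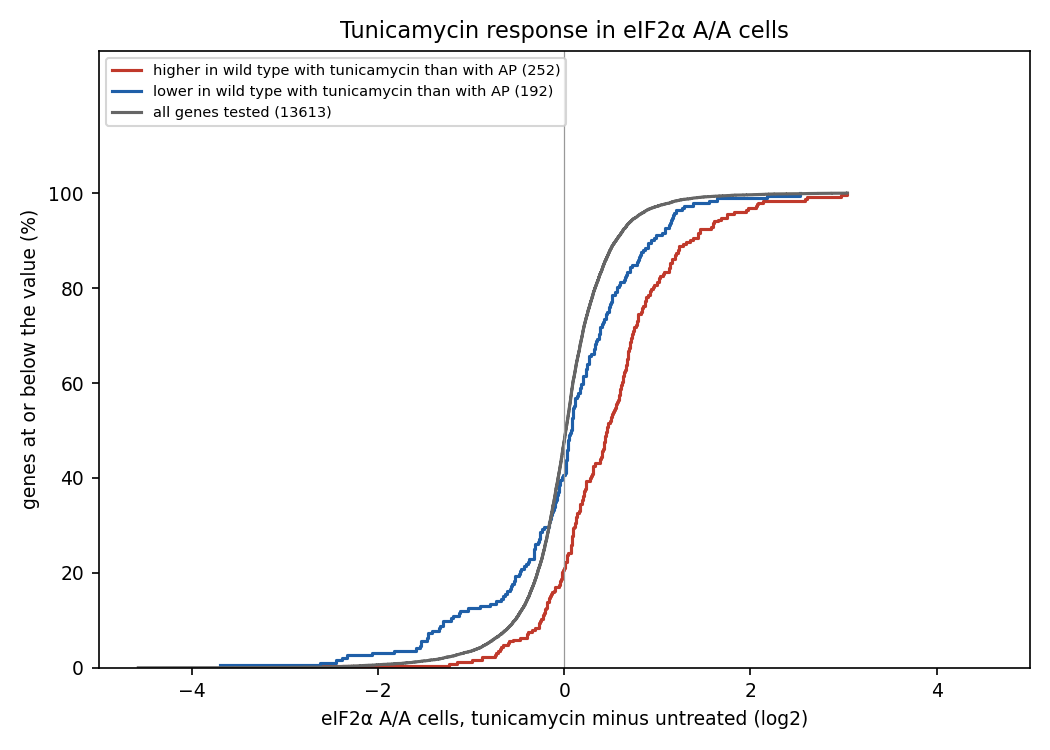
Cumulative share of genes by their tunicamycin response in eIF2α A/A cells (log2), for the 252 genes that held higher in wild-type cells, the 192 that held lower and all 13613 tested. The curve of the 252 lies to the right of all genes, with a median of 0.46 against 0.02.

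Promoter sequences were compared last, over the 10831 tested genes with a RefSeq promoter. The ER stress element occurred in 11 of 202 promoters of genes that held higher (5.45%), in none of 152 that held lower and in 17 of all 10831 (0.157%). Among the ER chaperones 8 of 26 held it (30.8%), and among genes raised by AP 1 of 339 (0.295%), the mannosyltransferase gene Alg12. The 11 genes were Derl3, Creld2, Ero1b, Dnajc3, Pdia6, Hsp90b1, Calr, Zfp57, Syvn1, Hspa5 and Canx. The other 6 of the 17 were Alg12, Hnrnpa3, Ptgdr2, Adcy3, Pan2 and Acacb, with differences from -0.92 (Acacb) to 0.87 (Alg12). Element II occurred in 5 of the 202 (2.48%) and in 9 of all (0.0831%). The sequence TGACGTGG, which XBP1 and ATF6 are known to bind, occurred in 3 of the 202 (1.49%) and in 1.04% of all promoters, and in 3 of 22 ERAD promoters (13.6%) and 2 of 26 ER chaperone promoters (7.69%).

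The ATF4 composite site was distributed otherwise. It occurred in 6 of the 202 promoters of genes that held higher (2.97%), near its share of all promoters (317 of 10831, 2.93%), and in 30 of 339 genes raised by AP (8.85%). In the ISR signalling list 7 of 21 promoters held it (33.3%) and in amino acid synthesis 3 of 15. It was not confined to these sets, as 2 of 26 ER chaperone promoters (7.69%) and 2 of 22 ERAD promoters (9.09%) carried it. Of N-glycosylation promoters 0 of 26 carried it, and of genes that held lower 5 of 152 (3.29%). In Hspa5 the ER stress element lies 65 to 47 bases before the start, in Derl3 156 to 138 and in Creld2 126 to 108, and in Derl3 and Creld2 it is on the opposite strand. In Herpud1 the element II lies 52 to 42 bases and the ATF4 site 112 to 105 bases before the start, and in Chac1 the ATF4 site lies 193 to 186 bases before it. Sites outside these 300 bases were not searched, and a match of letters does not show that a factor binds.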

How the data were processed

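Total RNA of the fibroblasts was labelled with Cy3 and read on Agilent arrays, per the labels' protocols. The deposited scanner files hold intensity values from Agilent Feature Extraction 10.7.1.1 (version per the submitters' processing notes): a processed signal, already background-subtracted, the median intensity of each spot and of its local background, and flags. The authors' deposited table holds log2 values of the same arrays, centred per probe on a baseline that stays unknown; 99.3% of them matched the scanner values within 0.001 once both were centred.

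Control spots were left out, as were spots marked as outliers unless a probe had no others, and no spot was saturated. From each array's log2 signal its 75th percentile over 55681 probes was subtracted. Accessions looked up in a RefSeq table (GRCm38.p6) gave 1 symbol to 26631 probes and none to 29050, and the brightest probe stood for each of 20170 genes. Of these, 13613 were tested, being well above background throughout at least 1 of the 4 groups, and 6557 were put aside.

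limma 3.58.1 in R 4.3.3 (lmFit and eBayes, two-sided) was fitted to all 24 arrays with 10 group means and a term for run 2 (13 residual and 2.48 prior degrees of freedom), or with means per group and run (12 residual). Errors are standard errors and intervals are 95% intervals. The fit was tested on simulated data with independent noise and the same added response in both wild-type runs. That test does not cover responses that differ between the runs. Members and gene lists were chosen with earlier results of these data known. Named were the 12 highest and 12 lowest differences among genes that held, up to 4 called members of each list by size, called members against their list's sign, and a fixed set of leading genes; other genes named were chosen after their values were seen. Of the genes that the rule names, 1 is not reported here. Same-numbered arrays did not deviate together (correlations from -0.013 to 0.027), so the numbers did not pair them. Alternatives changed the arrays fitted, normalization, background correction, filter, probe choice, array weights, slide block and prior, and left out each array in turn. The normexp alternative used median spot signals with an offset of 50. The number of arrays limits the precision.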

Additional observations from a re-analysis of the deposited data

Results flagged for a closer look

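In 17 cases the level on 1 of the 4 wild-type arrays of a group stood far from the other 3, judged by its gap to the nearest of them against the group's whole range. Chance flags about 1 in 20 such groups where all 4 arrays vary alike, but each group here joined 2 runs. With tunicamycin these levels were 9.23 for Hspa5, 3.26 for Ero1b, 4.02 for Cth, 5.92 for Sec11a, 2.18 for Sec63, 4.45 for Wfs1 and 2.43 for Mafk. They were -0.66 for Fgf21, -2.83 for Pcp4l1 and -4.94 for Fabp7. In untreated wild-type cells they were 4.59 for Xbp1, 2.77 for Sesn2, 3.85 for Spcs2, 4.54 for Sec11a, 6.23 for Eif3c, -0.36 for Pramel20 and -4.82 for Cyb5r2.

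The wild-type tunicamycin response differed between run 1 and run 2 in 1167 genes (limma, adjusted p under 0.05), among them 14 interferon-stimulated genes, 16 cholesterol genes and 9 cytokine genes. Of the genes named above, the response in run 1 minus that in run 2 was positive for Derl3 (1.55), Kdelr2 (0.57), Chac1 (1.84) and B4galnt2 (1.77). It was negative for Syvn1 (-0.77), Ppp1r15a (-0.80), Atf3 (-1.91), Eif2ak2 (-2.23) and Scara3 (-1.60). Interferon-stimulated genes with such a difference were Rtp4 (-3.41) and Parp14 (-3.58), and cytokine and matrix genes were Il6 (-7.44), Cxcl5 (-3.20) and Mmp3 (-5.79). It was also negative for Fabp7 (-3.11), Tuba8 (-1.60) and H2bu2 (-2.06). The treated and untreated wild-type arrays of run 1 lay on different slides and were scanned on different days. Slide, scan day and treatment cannot be told apart there.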

How the results depend on the processing

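Without a filter on dim probes 352 genes had a higher and 322 a lower difference, 157 held higher and 107 held lower, and AP raised 253 and lowered 115. Normexp left 345 lower differences, of which 113 held. With array weights the counts were 2397 higher and 2664 lower, 675 and 722 of which held, 3930 genes higher and 2131 lower with AP, and 153 of the genes that held higher called higher in A/A cells. With a replicate block, 312 genes were higher and 282 lower for the difference and 207 higher and 112 lower for AP; the numbers did not pair the arrays. Run 1 alone gave 1265 higher and 1494 lower differences. Run 2 alone gave 344 and 263, with 1796 genes higher and 1311 lower with tunicamycin. The cause of these shifts was not tested. Leaving out 1 array in turn gave 225 to 534 higher and 175 to 587 lower differences, 132 to 291 genes that held higher and 80 to 247 that held lower. It gave 111 to 525 genes higher and 39 to 264 lower with AP, 2585 to 3029 higher and 1987 to 2260 lower with tunicamycin, and 87 to 103 and 66 to 84 of the genes that held higher called in A/A and Perk-null cells. Of all calls, 45.8% to 57.3% were higher across the alternatives, against 50.7%. Among the named genes no called difference changed sign under the alternatives run. Uncalled ones did for Trib3 (0.06 with run 1 alone), Fgf21 (-0.47 with normexp), Il6 (0.11 with run 2 alone) and Col3a1 (0.03 to 0.88 under 5 alternatives). With run 2 alone the median turned to -0.38 for cholesterol genes, 0.03 for cytokines and 0.09 for matrix genes; with array weights it turned to -0.31 for cholesterol and 0.05 for matrix genes, and with quantile normalization to -0.16 for glycolysis genes. Genes near background in Fv2E-PERK cells have no measurable AP response.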
